A study of Saccharomyces cerevisiae with 8 samples.

Results

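Phosphoglycerate kinase (PGK1), the phosphoglycerate mutases (GPM1, GPM2 and GPM3) and the enolases (ENO1 and ENO2) were examined in RNA sequencing of budding yeast that made a single form of the transcription factor Gcr1. The 6 genes were taken by their identifiers (YCR012W, YKL152C, YDL021W, YOL056W, YGR254W and YHR174W) from a table of 7126 rows, and all 6 were present and passed the filter of a mean of at least 1 FPKM, as did 6339 rows in all. Strain S (JHY9200, BY4741 with a GCR1 deletion that the labels number 4 to 742) made Gcr1(S), the form of the spliced transcript, and strain U (JHY9100, BY4741 with the deletion 1 to 574) made Gcr1(U), the form of the unspliced transcript. Each strain was sampled after 12 h, past the diauxic shift, and after 6 h, in exponential phase, with 2 libraries in each of the 4 groups S 12 h, U 12 h, S 6 h and U 6 h. All cultures were grown untreated in rich medium (YPD) with 2% glucose at 30 °C. GCR1 was edited in every group, so no group carried the unedited gene, and the labels state neither how many clones each strain stands for nor whether a group's libraries are separate cultures. The p-values therefore measure the spread between these libraries, which may be technical.

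These enzymes carry out consecutive steps of lower glycolysis. Phosphoglycerate kinase makes ATP while forming 3-phosphoglycerate, the mutase moves the phosphate to give 2-phosphoglycerate, and enolase removes water to give phosphoenolpyruvate. All of these steps are reversible and also serve gluconeogenesis, which yeast turns on when glucose is used up and ethanol becomes the carbon source. Gpm1 is the main mutase, while Gpm2 and Gpm3 are close relatives with little known part in glycolysis. Eno1 and Eno2 are nearly alike, and ENO2 is known as the form induced by glucose. Gcr1 activates many glycolytic genes at CTTCC motifs that often lie near sites of the factor Rap1.

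The upstream regions of the genes with high transcript levels are shown because Gcr1 is known to act there. Each stretch holds the 300 bases from 550 to 251 bases before the start codon in RefSeq's R64 assembly, the sequence behind the build sacCer3 that the submitters name, read 5′ to 3′ on the strand of the gene. The window was chosen after the motif positions were seen. It lies at chrIII:137196-137495 (plus strand) for PGK1, chrXI:164636-164935 (minus strand) for GPM1, chrVII:1000377-1000676 (plus strand) for ENO1 and chrVIII:450777-451076 (plus strand) for ENO2. Capitals mark the Gcr1 motif CTTCC and the Rap1 motif ACCCANACA, each searched on both strands.
PGK1: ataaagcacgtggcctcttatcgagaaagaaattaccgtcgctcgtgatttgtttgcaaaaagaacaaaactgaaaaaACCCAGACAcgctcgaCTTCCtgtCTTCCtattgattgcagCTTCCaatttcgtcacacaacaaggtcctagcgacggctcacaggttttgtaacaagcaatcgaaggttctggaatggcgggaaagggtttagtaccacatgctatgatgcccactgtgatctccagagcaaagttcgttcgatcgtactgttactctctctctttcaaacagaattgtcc
GPM1: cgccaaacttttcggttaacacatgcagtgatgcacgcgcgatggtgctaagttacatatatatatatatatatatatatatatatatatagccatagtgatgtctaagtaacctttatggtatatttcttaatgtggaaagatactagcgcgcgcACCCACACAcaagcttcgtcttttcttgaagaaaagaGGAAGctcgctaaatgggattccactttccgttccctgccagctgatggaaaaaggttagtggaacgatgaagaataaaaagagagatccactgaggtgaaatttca
ENO1: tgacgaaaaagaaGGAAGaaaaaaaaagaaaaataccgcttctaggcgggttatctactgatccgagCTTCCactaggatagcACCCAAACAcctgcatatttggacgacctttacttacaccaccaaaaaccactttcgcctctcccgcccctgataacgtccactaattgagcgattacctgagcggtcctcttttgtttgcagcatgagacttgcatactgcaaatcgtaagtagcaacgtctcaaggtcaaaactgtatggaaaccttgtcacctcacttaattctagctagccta
ENO2: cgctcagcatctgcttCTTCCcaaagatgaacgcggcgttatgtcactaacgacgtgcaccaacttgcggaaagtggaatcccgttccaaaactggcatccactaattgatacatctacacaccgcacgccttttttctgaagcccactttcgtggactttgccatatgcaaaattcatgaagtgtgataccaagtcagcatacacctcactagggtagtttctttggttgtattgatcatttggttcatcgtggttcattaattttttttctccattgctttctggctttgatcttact

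PGK1, GPM1 and ENO1 held both motifs in this window, a combination found in 1.06% of the 6019 protein-coding genes with such a window (CTTCC in 49.0% and ACCCANACA in 2.04%). Because the window was chosen with the positions known, these shares cannot test whether the members hold the motifs more often than other genes. In PGK1 the Rap1 motif began 472 bases before the start codon and was followed by 3 copies of CTTCC, at 456, 448 and 431. In ENO1 CTTCC lay at 483 and the Rap1 motif at 467, with another Gcr1 motif on the other strand at 537. GPM1 had the Rap1 motif at 394 and a Gcr1 motif on the other strand at 357. ENO2 had CTTCC at 534 and a related form of the Gcr1 motif, CATCC (34.5% of windows), at 454, and GPM2 had CATCC alone, on the other strand at 521. The motif CCCCT of the stress factors Msn2 and Msn4 (22.9% of windows) was found in ENO1 at 401 and in GPM2 on the other strand at 419. In GPM3 these 4 motifs were not among the letters of this window. The searched motifs do not overlap each other in letters, and a match is not a measured binding site.

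**Figure D1:**
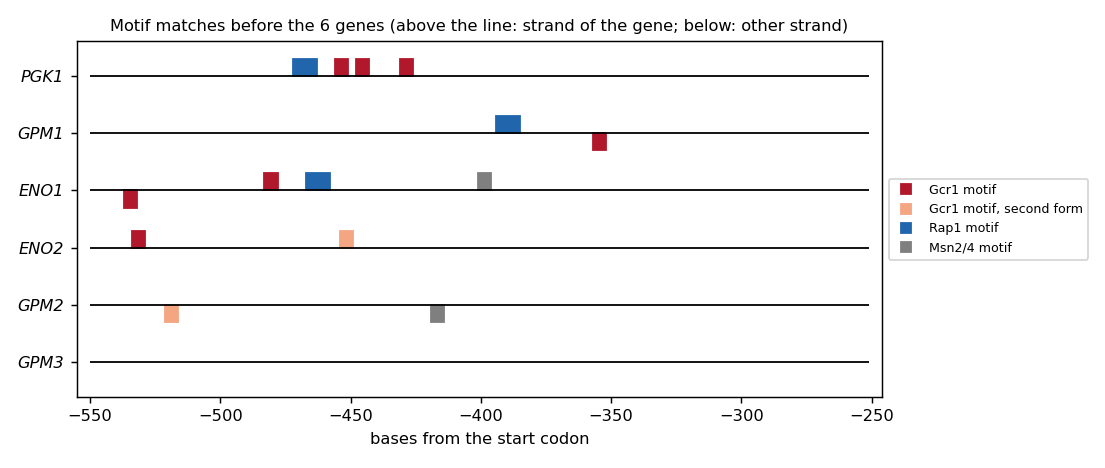
Motif matches in the 300 bases from 550 to 251 bases before the start codon of each gene, on the horizontal axis in bases; boxes above a line are on the strand of the gene and boxes below it on the other strand. PGK1, GPM1 and ENO1 hold a Gcr1 motif (CTTCC) and a Rap1 motif, and GPM3 has no box.

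Expression was deposited as FPKM, fragments scaled to gene length and to the size of the library, so levels of different genes can be compared per length. A value is a share of its library, so fewer transcripts per cell and a larger pool of other RNA cannot be told apart. The median FPKM of all rows ran from 38.8 to 51.3 per library, and the read depth is unknown. The labels were checked with marker genes: all 6 markers of growth after the diauxic shift were higher in every 12 h library than in every 6 h library, with PCK1, of gluconeogenesis, between 6778 and 9762 FPKM at 12 h and between 3.26 and 5.04 at 6 h. LEU2, MET17 and URA3, deleted in BY4741, were listed at 0 in all 8 libraries, while HIS3, which is known to be deleted only in part in this background, ran from 68.8 to 283 FPKM. Of the genes of mating type a, that of BY4741, MFA2, STE2 and BAR1 were at 35.8 FPKM or more in all 8 libraries. MFA1 ran from 0 (S 12 h replicate 2) to 1458 FPKM (U 6 h replicate 2). Of the genes of mating type alpha, MF(ALPHA)1 and STE3 reached at most 10.4 and 8.22 FPKM, and MF(ALPHA)2 ran from 10.4 to 28.5. The 6 h libraries of a group stood apart from each other. The summed FPKM of 8 heat shock and stress genes was 6452 in replicate 1 and 478 in replicate 2 of S, and 6888 and 1214 in replicates 1 and 2 of U, and 8 of 8 of these genes in S and 7 of 8 in U were higher in replicate 1. At 12 h this sum was 92016 and 63060 in S, and 89368 and 58611 in U. At 6 h 5 of the 6 genes described here were higher in replicate 1 in both strains, by a median of 0.55 in S and 0.54 in U on the scale of log2(FPKM + 1). Of 13 other glycolysis genes 11 in S and 9 in U were also higher in replicate 1 at 6 h. The share over all rows was not counted.

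Together the 6 genes made up 0.612% and 0.479% of the summed FPKM in the S 12 h libraries, against 0.0796% and 0.125% in the U 12 h libraries. At 6 h the share was 1.58% and 1.22% in S, against 1.34% and 1.00% in U. GPM1 was the highest of the 6 in every group, and the order below it changed with time. At 6 h the order in both strains was GPM1, ENO2, PGK1, ENO1, GPM3 and GPM2, where PGK1 and ENO1, and also GPM3 and GPM2, overlapped between their libraries. At 12 h the order in S was GPM1, ENO1, PGK1, ENO2, GPM2 and GPM3, with overlap between ENO1 and PGK1. In U at 12 h it was GPM1, PGK1, ENO1, GPM2, ENO2 and GPM3, with overlap between GPM1 and PGK1. Reads of PGK1 may be counted in part in the row YCR013C, described below. The place of PGK1, and with it that of GPM1 at 12 h in both strains, is therefore uncertain. GPM1 was at rank 6 and 18 of all 7126 rows in the S 6 h libraries and at rank 10 and 16 in U 6 h. At 12 h its ranks were 54 and 87 in S and 525 and 355 in U.

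**Figure D2:**
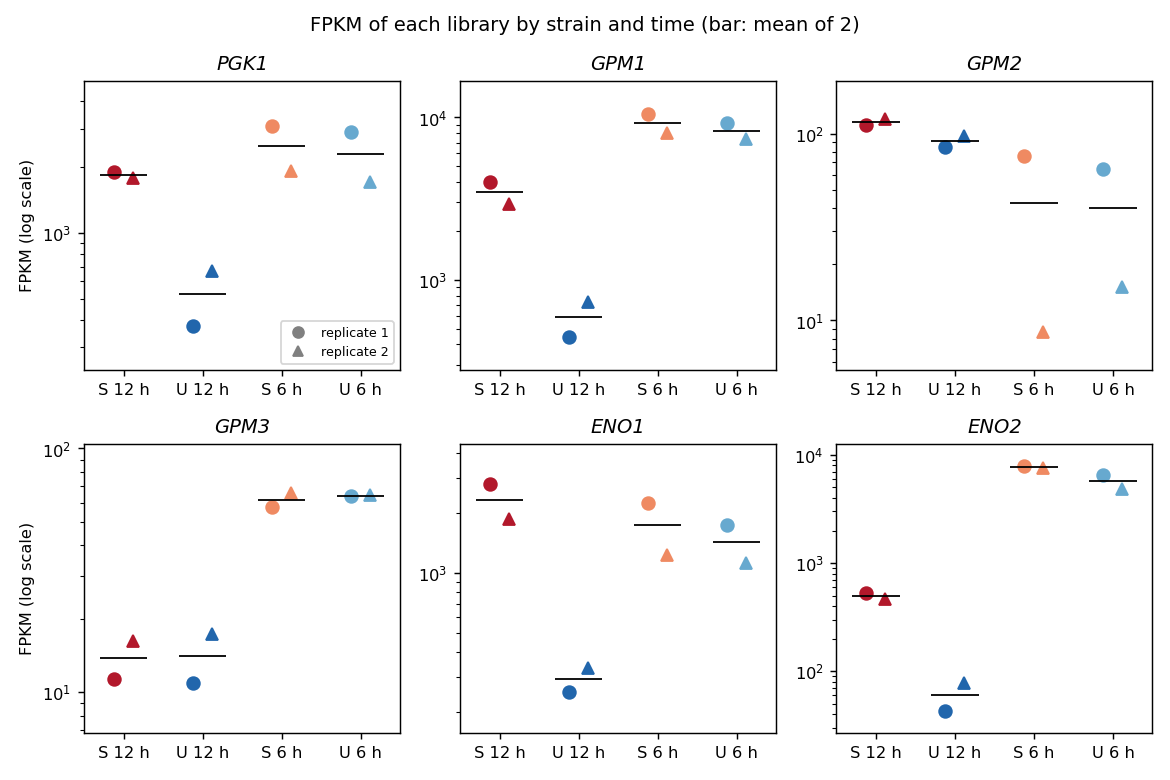
FPKM on a log axis for each gene and library, with groups on the horizontal axis, circles for replicate 1, triangles for replicate 2 and a bar for the mean of 2. PGK1, GPM1, ENO1 and ENO2 sit far lower in U 12 h than in S 12 h, GPM3 is at about the same level in both strains at each time, and GPM2 differs most between the libraries of a group at 6 h.

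At 12 h ENO2 was 8.42-fold higher in S than in U, and it was the member that passed the test over all genes. PGK1, GPM1 and ENO1 had fitted ratios of 3.66, 6.04 and 7.89 (S over U) without passing it, and the libraries of the strains overlapped in GPM3. Of the 6 members 1 was called higher and 0 lower, against 0.126% of the 6339 rows called (8 rows), 0.11% higher (7 rows) and 0.0158% lower (1 row). The median log2 fold change of the 6 members was 2.23, against -0.04 over all rows tested. In 5 of 6 members both S libraries were above both U libraries, against 6.36% of all rows, and in 0 members both were below, against 14.3% of all rows. Tests were made with limma on log2(FPKM + 1), with Benjamini-Hochberg adjustment over all rows and a threshold of 0.05.

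PGK1 had 1903 and 1776 FPKM in the S 12 h libraries, against 376 and 669 in the U 12 h libraries. Both S libraries were above both U libraries. The log2 fold change was 1.87 (SE 0.40, 95% interval 0.91 to 2.84), which did not pass the test (limma, adjusted p = 0.735, unadjusted p = 0.0029). GPM1 had 4009.5 and 2951 FPKM in S, against 444 and 729.6 in U, again without overlap. Its log2 fold change was 2.59 (SE 0.31, 95% interval 1.84 to 3.35), with adjusted p = 0.0776 in limma.

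GPM2 stood at 111 and 119 FPKM in S 12 h and at 84.9 and 97.2 in U 12 h. The groups did not overlap, but the log2 fold change of 0.34 had a 95% interval from -2.13 to 2.81. The fit takes 1 spread per gene over all 4 groups, and the 6 h libraries of this gene lie far apart. For GPM3 the values were 11.3 and 16.3 FPKM in S, against 10.9 and 17.3 in U, with overlap and a log2 fold change of -0.02 (95% interval -0.64 to 0.61). Its sign was positive with median-of-ratios scaling and with quantile normalization (0.017 and 0.020), so no direction was set for GPM3.

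ENO1 had 2789 and 1878 FPKM in S 12 h, against 252 and 332 in U 12 h. The groups did not overlap, and the log2 fold change of 2.98 (SE 0.39, 95% interval 2.05 to 3.91) had adjusted p = 0.0959 in limma. ENO2 had 528 and 466 FPKM in S, against 43.1 and 78.0 in U. Its log2 fold change of 3.07 (SE 0.30, 95% interval 2.34 to 3.81) passed the test (limma, adjusted p = 0.0306). The call was lost in 7 of 8 fits with a single library removed. Removing S 12 h replicate 1 or 2 gave an adjusted p of 0.252 or 0.223, removing S 6 h replicate 1 or 2 gave 0.109 or 0.105, removing U 6 h replicate 1 or 2 gave 0.0755 or 0.0816, and removing U 12 h replicate 1 gave 0.0559. The log2 fold change of ENO2 stayed between 2.65 and 3.49 in the 8 fits. With the 12 h libraries fitted alone the adjusted p was 0.308.

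**Figure D3:**
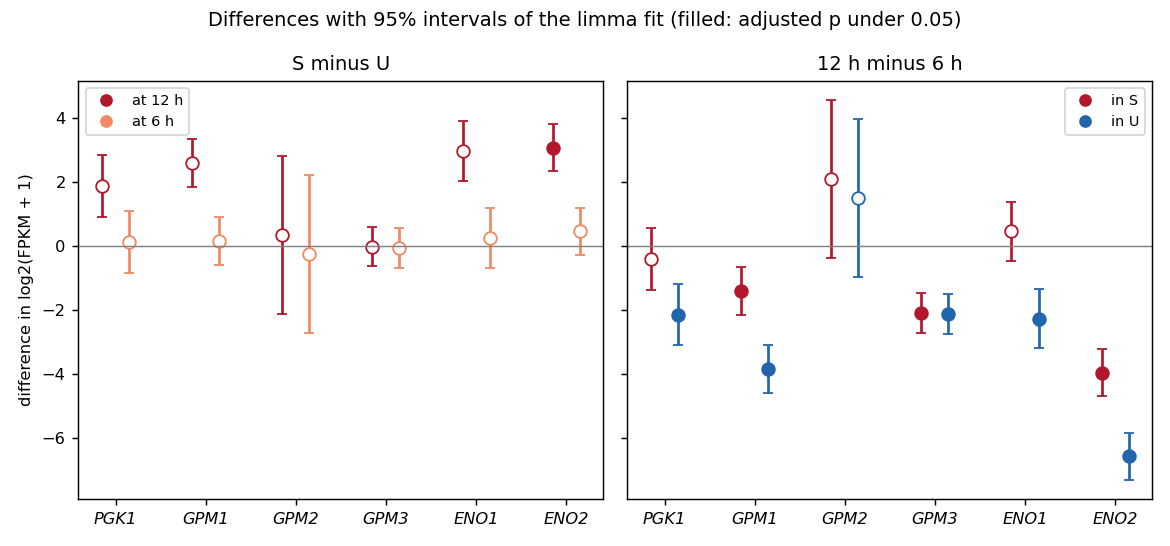
Differences in log2(FPKM + 1) of each gene, S minus U on the left and 12 h minus 6 h on the right, with 95% intervals of the limma fit; filled points have an adjusted p under 0.05. For S minus U only ENO2 at 12 h is filled, and for 12 h minus 6 h the filled points are 5 in U and 3 in S, all below 0.

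At 6 h, in exponential phase, no member passed the test between the strains. Of the 6 members 0 were called by limma in either direction, against 0.0789% of all rows (5 rows), 0.0316% higher and 0.0473% lower. At an unadjusted p under 0.05 the count was also 0 members, against 56 of the 6339 rows. Their median log2 fold change was 0.14, against -0.0027 over all rows. ENO2 alone did not overlap, at 7932 and 7625 FPKM in S and 6586 and 4856 in U, and 5.77% of all rows had both S libraries above both U libraries and 4.89% had both below. Its log2 fold change was 0.46 (95% interval -0.28 to 1.19, adjusted p = 1). The 95% intervals of S minus U ran from -0.83 to 1.10 for PGK1, from -0.60 to 0.90 for GPM1, from -0.68 to 1.19 for ENO1 and from -0.68 to 0.56 for GPM3. The interval of GPM2 was the widest, from -2.73 to 2.22. The signs of the values other than that of ENO2 changed when 1 library was left out.

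At 12 h against 6 h, transcripts of 3 members fell in S and of 5 in U. These were GPM1, GPM3 and ENO2 in S, and PGK1, GPM1, GPM3, ENO1 and ENO2 in U. Of all rows, limma called 56.1% in S, 22.9% lower and 33.2% higher at 12 h, and 55.3% in U, 21.7% lower and 33.5% higher. Both 12 h libraries were below both 6 h libraries for 4 members in S and 5 in U, against 32.8% and 31.9% of all rows. The median log2 fold change of the 6 members was -0.91 in S and -2.21 in U, against 0.23 in S and 0.26 in U over all rows. With median-of-ratios scaling the median of all rows moved by -0.21 in S and -0.24 in U, and the share of higher genes among the calls was 48.8% in S and 48.5% in U, against 59.2% in S and 60.7% in U with the deposited values.

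For PGK1 the values were 1903 and 1776 FPKM in S 12 h, against 3097 and 1909 in S 6 h, and 376 and 669 in U 12 h, against 2895 and 1702 in U 6 h. The 12 h libraries were below the 6 h libraries in both strains, in S by a narrow margin. In S the log2 fold change of -0.40 (95% interval -1.37 to 0.56) did not pass the test (adjusted p = 0.419), and its sign was not kept with quantile normalization (0.016). In U PGK1 fell by 2.14 on the log2 scale (SE 0.40, limma, adjusted p = 0.00524).

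GPM1 had 4009.5 and 2951 FPKM in S 12 h, against 10479 and 7979.8 in S 6 h, a log2 fold change of -1.41 (SE 0.31, limma, adjusted p = 0.00982). The call did not hold when S 12 h replicate 2 was removed (adjusted p = 0.0617) or without both 6 h libraries numbered 1 (adjusted p = 0.0527), which was tried after seeing the data. In U it had 444 and 729.6 FPKM at 12 h, against 9221 and 7373 at 6 h, a level 14.5-fold lower (-3.85 on the log2 scale, SE 0.31, adjusted p = 0.000275). GPM1 thus fell in both strains, and the U 12 h libraries held the lowest values.

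GPM3 fell in both strains. It had 11.3 and 16.3 FPKM in S 12 h, against 57.7 and 65.4 in S 6 h, and 10.9 and 17.3 in U 12 h, against 63.8 and 64.5 in U 6 h. The log2 fold changes were -2.10 in S (limma, adjusted p = 0.00115) and -2.14 in U (adjusted p = 0.00106), with SE 0.26 each. The difference between them, S minus U, was 0.04 (95% interval -0.84 to 0.92).

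GPM2 went the other way in its values. It had 111 and 119 FPKM in S 12 h, against 75.9 and 8.67 in S 6 h, and 84.9 and 97.2 in U 12 h, against 64.8 and 15.1 in U 6 h. All 12 h libraries were above all 6 h libraries of their strain, which held for 47.1% of all rows in S and 49.2% in U. The log2 fold changes of 2.09 in S and 1.50 in U did not pass the test (limma, adjusted p = 0.127 in S and 0.252 in U). Within 6 h the libraries differed by 2.99 in S and 2.03 in U on the log2 scale, the higher being replicate 1, where the sum of the heat shock genes was also higher. The part of that state in the values of GPM2 was not tested. Without both 6 h libraries numbered 1 the log2 fold changes were 3.59 in S and 2.51 in U. Without both numbered 2 they were 0.60 in S and 0.48 in U, and without S 6 h replicate 1 alone the value in S was 3.59. A 6 h group reduced in this way holds a single library. The spread within it does not enter the fit, so no p-value is given. These settings with both libraries of a number left out were chosen after seeing the data.

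ENO1 fell in U, while in S its libraries at both times overlapped. It had 2789 and 1878 FPKM in S 12 h, against 2258 and 1233 in S 6 h, and the log2 fold change of 0.46 (95% interval -0.48 to 1.39) did not pass the test (adjusted p = 0.348). In U it had 252 and 332 FPKM at 12 h, against 1745 and 1120.5 at 6 h, and fell by 2.27 on the log2 scale (SE 0.39, limma, adjusted p = 0.0038). ENO2 fell furthest of the 6 genes in both strains. It had 528 and 466 FPKM in S 12 h, against 7932 and 7625 in S 6 h, a level 15.7-fold lower (log2 fold change -3.97, SE 0.30, limma, adjusted p = 0.000236). In U it had 43.1 and 78.0 FPKM at 12 h, against 6586 and 4856 at 6 h, a level 95.8-fold lower (log2 fold change -6.58, SE 0.30, adjusted p = 5.32e-05).

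The difference of these time changes, S minus U, was above 0 for all 6 members, against 2530 of 6339 rows, and passed the test for 0 of the members. Limma called 0.0789% of all rows (5 rows), 0.0473% above 0 and 0.0316% below. An unadjusted p under 0.05 was found for 4 members, against 51 of the 6339 rows. The values were 2.72 for ENO1 (95% interval 1.41 to 4.04, adjusted p = 0.791), 2.61 for ENO2 (1.57 to 3.65, adjusted p = 0.359), 2.44 for GPM1 (1.38 to 3.51, adjusted p = 0.545) and 1.74 for PGK1 (0.38 to 3.10, adjusted p = 1). GPM2 had 0.59 and GPM3 0.04, and both changed sign when 1 library was left out. The course of a gene in S and in U was therefore not shown to differ by this test, although PGK1 and ENO1 passed the threshold in U and not in S. This comparison shares its libraries with the 4 others and is not separate evidence from them.

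The enolases exchanged places with time in both strains. ENO1 was 5.28 and 4.03 times the level of ENO2 in S 12 h, against 0.285 and 0.162 times in S 6 h, and 5.84 and 4.26 times in U 12 h, against 0.265 and 0.231 times in U 6 h. ENO1 thus made up 82.1% ± 2.79 of the summed enolase FPKM in S 12 h and 83.2% ± 3.10 in U 12 h (SD, n = 2 each). At 6 h ENO1 made up 18.0% ± 5.83 in the S libraries and 19.8% ± 1.55 in the U libraries (SD, n = 2 each). The ratio of ENO1 to ENO2 was 20.8-fold higher at 12 h than at 6 h as a mean over the strains. An exact permutation test with times exchanged within strain gave p = 0.0556 (two-sided), the smallest p that its 36 arrangements allow. Between S and U, exchanged within time, the ratio differed by 0.896-fold with overlapping libraries at both times (exact permutation p = 0.556).

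The summed level of both enolases was lower at 12 h than at 6 h in both strains, and lower in U than in S, most of all at 12 h. It was 2831 ± 689 FPKM in S 12 h, against 353 ± 81.8 in U 12 h (SD, n = 2 each), and 9525 ± 942 in S 6 h, against 7154 ± 1665 in U 6 h (SD, n = 2 each). As a mean over the strains the sum at 12 h was 0.12-fold that at 6 h. As a mean over the times the sum in S was 3.28-fold that in U. Each had an exact permutation p of 0.0556 (two-sided), the smallest possible. Since the coding sequences of ENO1 and ENO2 have the same length of 1314 bases and match at 1246 positions (94.8%), reads can be shared between them. Of the 1215 windows of 100 bases in ENO1, the number of sequencing cycles per read, 33 occur without a mismatch in ENO2, and the longest identical stretch is 112 bases. How the authors' tools divided such reads was not tested. Stretches of 25 bases in common were found between the enolases (599 of 1290 windows of ENO1) and between no other pair of the 6 genes.

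**Figure D4:**
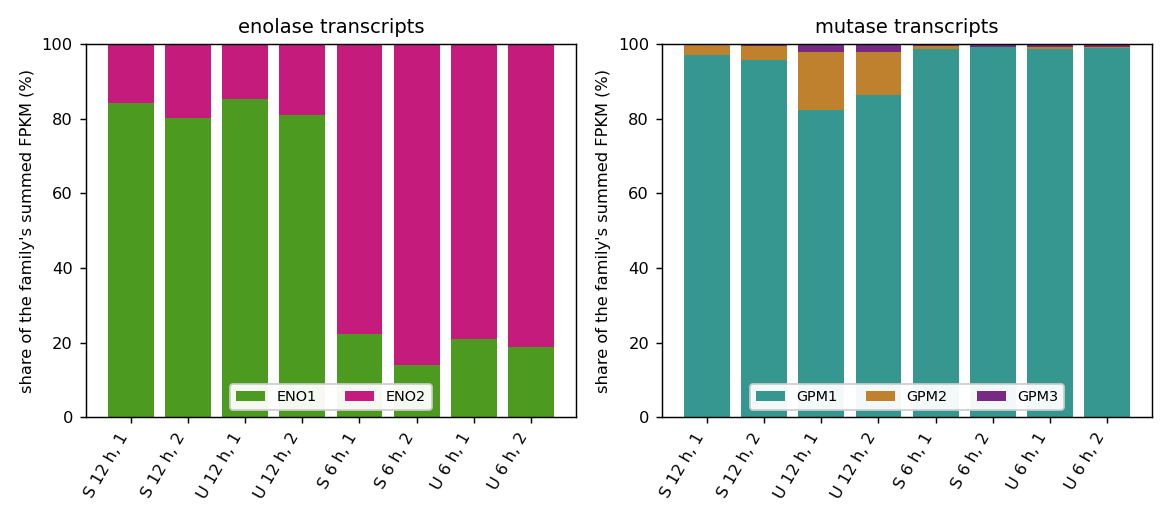
Share of the summed FPKM of the enolases (left) and of the mutases (right) held by each gene, in percent, with 1 bar per library labelled by group and replicate. ENO1 holds most of the enolase FPKM in all 12 h libraries of both strains and ENO2 in all 6 h libraries, while GPM2 reaches a visible share of the mutases in U 12 h.

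Among the mutases GPM1 kept most of the transcripts. Its share of the summed mutase FPKM was 96.3% ± 1.01 in S 12 h, against 84.3% ± 2.96 in U 12 h, and 98.9% ± 0.24 in S 6 h, against 98.8% ± 0.22 in U 6 h (SD, n = 2 each). GPM2 made up 3.28% ± 0.83 in S 12 h and 13.6% ± 2.98 in U 12 h (SD, n = 2 each). The level of GPM2 itself was 115 ± 5.83 FPKM in S 12 h and 91.1 ± 8.68 in U 12 h (SD, n = 2 each). GPM2 was 9.81 and 7.32 times the level of GPM3 in S 12 h, against 1.32 and 0.133 times in S 6 h, and 7.79 and 5.61 times in U 12 h, against 1.02 and 0.235 times in U 6 h.

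PGK1 and GPM1, which encode neighbouring steps, did not change in the same proportion. GPM1 stood at 2.11 and 1.66 times the level of PGK1 in S 12 h, against 3.38 and 4.18 times in S 6 h. In U it stood at 1.18 and 1.09 times at 12 h, against 3.19 and 4.33 times at 6 h. The ratio was lower in every 12 h library than in every 6 h library of its strain (exact permutation p = 0.0556, two-sided, the smallest possible). Reads of both genes may be counted in part in the rows YCR013C and YKL153W, described below, so the size of these ratios is uncertain.

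**Figure D5:**
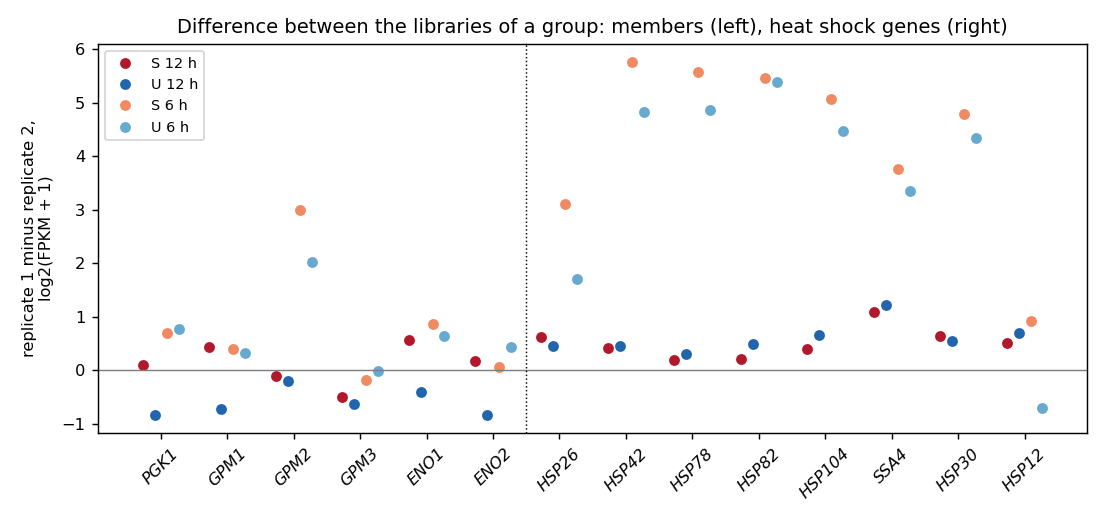
Difference between replicate 1 and replicate 2 of each group in log2(FPKM + 1), for the 6 genes left of the dotted line and 8 heat shock and stress genes right of it. At 6 h GPM2 differs by 2.99 in S and 2.03 in U, and the heat shock genes by medians of 4.93 in S and 4.41 in U, while at 12 h these medians are 0.47 in S and 0.52 in U.

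At 12 h the libraries of a group differed as well. In U 12 h all 6 genes were lower in replicate 1 than in replicate 2, by a median of 0.67 on the log2 scale, while in S 12 h 4 of 6 were higher in replicate 1. Of 13 other glycolysis genes 3 in U 12 h and 10 in S 12 h were higher in replicate 1. The share over all rows was not counted. All 6 markers of the diauxic shift were lower in replicate 1 in both strains at this time: ADH2, the alcohol dehydrogenase that consumes ethanol, had 200 and 2043 FPKM in replicates 1 and 2 of S, and 357 and 2547 in U. The part of this difference in the comparison of the strains was not tested.

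The other 13 genes of glycolysis were counted beside the members, with the list chosen with earlier results of these data known. For S minus U at 12 h 4 of 13 were called higher by limma, CDC19 (pyruvate kinase, log2 fold change 3.56), TDH3 (2.84) and TDH2 (2.67), both of glyceraldehyde-3-phosphate dehydrogenase, and PGI1 (phosphoglucose isomerase, 2.04), and 0 lower. The median of the 13 was 1.45. The count of 4 was 0 after removing either S 12 h library or U 6 h replicate 2, and 1 after removing either S 6 h library, U 6 h replicate 1 or U 12 h replicate 1. At 6 h 0 of 13 were called (median 0.12). At 12 h minus 6 h 5 of 13 fell in S (median -0.56), namely CDC19, HXK2, PFK1, PFK2 and TDH2, and 0 were called higher. In U 9 of 13 fell (median -2.09), those 5 with FBA1 (aldolase), PGI1, TDH3 and TPI1 (triose-phosphate isomerase), and 0 were called higher. The count in S was 8 after removing either U 12 h library and 8 with median-of-ratios scaling. HXK2, a hexokinase, fell in both strains as GPM3 did. It fell by 3.03 in S and by 2.87 in U on the log2 scale, with a log2 fold change of -0.25 between the strains at 12 h (adjusted p = 1).

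The rows with the most similar course over the 8 libraries were found by Pearson's r of log2(FPKM + 1) among the 5821 rows that averaged 10 FPKM or more; these r rest on 8 libraries that fall into 4 groups and are given as descriptions. For GPM1 the most similar rows were ADH1 (r = 0.998), an alcohol dehydrogenase that makes ethanol, YKL153W (0.995) and YAL037C-B (0.994, deposited as CDC19). For ENO2 they were PDC1 (0.996), which encodes pyruvate decarboxylase, TDH2 (0.993) and PFK2 (0.989). For PGK1 they were YCR013C (0.997), TDH3 (0.974) and TPI1 (0.970), and for ENO1 TDH3 (0.958), PGI1 (0.907) and YCR013C (0.904). For GPM3 they were ATX2 (0.999), YPL250W-A (0.999, deposited as RPL36B) and ELO3 (0.999). For GPM2 they were CPR5 (0.995), YIP5 (0.995) and ARC19 (0.993). Among the members r was highest between GPM1 and ENO2 (0.973) and between PGK1 and GPM1 (0.957), and lowest between GPM2 and GPM3 (-0.70).

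YCR013C and YKL153W have no entry in the RefSeq annotation used here. Their systematic names carry the numbers next to those of PGK1 and GPM1 and the opposite strand. The names do not tell whether these rows overlap PGK1 and GPM1, and their positions were not looked up. YCR013C had 2236 and 2176 FPKM in S 12 h, against 482 and 897 in U 12 h, and 3773 and 2589.99 in S 6 h, against 3851 and 2046 in U 6 h, above PGK1 in every library. YKL153W had between 7.01 and 121 FPKM. The sources used here do not say whether the counting used strand, so reads of PGK1 and GPM1 may be counted in these rows, and the split within these pairs is uncertain. The row YAL037C-B, deposited as CDC19, has no RefSeq entry either. How reads were split between it and the row of CDC19 itself was not tested. The enolase-related genes ERR1 and ERR2, close copies of the enolases known from chromosome ends, were listed at 0 in all 8 libraries, and ERR3 at no more than 0.75 FPKM.

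In the R64 assembly PGK1 lies on chromosome III from 137746 to 138996, GPM1 on XI from 163642 to 164385 (minus strand), GPM2 on IV from 413953 to 414888, GPM3 on XV from 223268 to 224179, ENO1 on VII from 1000927 to 1002240 and ENO2 on VIII from 451327 to 452640. Each span is a coding sequence without an intron.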

How the data were processed

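RNA of 8 yeast libraries was sequenced paired-end with 100 cycles from a stranded mRNA kit, per the labels' protocols. The authors deposited FPKM, 1 value per gene and library. The submitters' processing notes name bcl2fastq 1.8.2, FastQC 0.10.1, TopHat2 2.1.1, Cufflinks and the build sacCer3; the sources used here do not give settings or annotation. Cufflinks values are estimates, and the file gives no counts, so the depth and the precision per value are unknown.

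The 6339 rows that averaged 1 FPKM or more were analysed as log2(FPKM + 1). One limma 3.58.1 fit (R 4.3.3, eBayes with trend, 4 group means, 4 residual and 2.33 prior degrees of freedom) gave 5 two-sided comparisons, with Benjamini-Hochberg adjustment over all rows of each and a threshold of 0.05. A pseudocount understates the change of low genes. The fit was tested on simulated data with independent noise in each library, which leaves out the replicate differences that the strains share. All 6 members were named in every comparison, the other glycolysis genes where called and up to 4 besides, and per member the 3 most similar rows. Members and lists were chosen with earlier results of these data known. Sequences are from RefSeq R64, where all 6 members were matched by locus tag. Tables used Python 3.11.15 and pandas 2.3.3. Alternatives were other pseudocounts, filters and scalings, replicate blocks, no trend, smaller fits and libraries left out.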

Additional observations from a re-analysis of the deposited data

How the results depend on the processing

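Of 624 member values under other settings, 581 kept their direction and side of the threshold, 13 lost and 8 gained a call and 22 changed sign. At 12 h the count of 1 member called between the strains was 0 with a replicate block, 2 with a replicate block within each time, 0 with the compared groups alone, 0 without the 6 h libraries numbered 1 or numbered 2 (settings chosen after seeing the data), and 0 to 1 when 1 library was left out; smaller fits hold fewer samples, otherwise the cause was not tested. ENO2 had a limma adjusted p of 0.0921 with the replicate block and 0.0294 with the block within each time, where ENO1 also passed (0.028). With that block GPM2 was called higher at 12 h in S (0.000537) and U (0.00202), and calls over time among all rows numbered 4818 in S and 4843 in U. The block within each time takes out the gap between replicates 1 and 2 that the strains share at a time. Its p-values for 12 h against 6 h therefore do not measure that gap. The labels tie no shared culture to a replicate number; replicate differences correlated over genes by 0.64 between S and U at 6 h, 0.38 at 12 h and at most 0.08 between times. Members called at 12 h against 6 h numbered 5 in each leave-one-out fit in U and 2 to 4 in S. Sign changes were 0.23 for GPM2 at 6 h without the libraries numbered 2, 0.020 for GPM3 at 6 h without those numbered 1, 0.017 and 0.020 for GPM3 at 12 h with median-of-ratios scaling and quantile normalization, 0.016 for PGK1 over time in S with quantile normalization, and -0.037 for the time difference of GPM3 without those numbered 1. Leave-one-out ranges of S minus U at 6 h were -0.25 to 0.51 (PGK1), -0.047 to 0.35 (GPM1), -1.75 to 1.24 (GPM2), -0.15 to 0.027 (GPM3) and -0.18 to 0.69 (ENO1). They were -0.33 to 0.29 for GPM3 at 12 h, and for the difference of time changes -0.90 to 2.09 (GPM2) and -0.27 to 0.36 (GPM3). Among all rows the 8 calls between strains at 12 h were 2 with the replicate block, 13 with the block within each time, 0 with the groups alone (103 at an unadjusted p under 0.05), 2 without the 6 h libraries numbered 1, 0 without those numbered 2 (99 unadjusted), and 0 to 15 when 1 library was left out. The 5 calls at 6 h were 0 without rows listed at 0 (38 unadjusted) and 2 without the libraries numbered 2. The 5 calls of the time difference were 0 without rows listed at 0 (43 unadjusted), 3 with a pseudocount of 10, 3 without the libraries numbered 2 and 2 to 11 when 1 library was left out. The 3557 calls over time in S were 2321 without S 12 h replicate 1. The other glycolysis genes called between strains at 12 h were 1 with the replicate block, 0 with the groups alone and 0 without either pair of 6 h libraries. Over time in S they were 10 with the block within each time, and for the time difference 1 with quantile normalization and 2 without U 12 h replicate 2. With 2 libraries a group and no counts, small differences could not be resolved. A fit to compared groups alone does not exist for the difference of time changes.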

Other observations

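GLK1, HXK1, TDH1 and PYK2 of upper and lower glycolysis also stood apart between the 6 h libraries; these 4 genes were chosen after their values were seen. Replicate 1 stood above replicate 2 of S 6 h by 3.50 for GLK1 (glucokinase), 3.17 for HXK1 (a hexokinase), 2.43 for TDH1 (a glyceraldehyde-3-phosphate dehydrogenase) and 2.20 for PYK2 (a pyruvate kinase) on the scale of log2(FPKM + 1). In U 6 h the same differences were 2.14, 1.57, 1.34 and 1.42. At 12 h they ran from -0.28 to 1.21 in S and from -0.16 to 1.02 in U. The 13 glycolysis genes outside the members had a median difference of 0.16 in S 6 h and 0.18 in U 6 h.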
